A study of Mus musculus with 6 samples.

Results

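Described here are 8 mouse genes of the reproductive branch of the NLRP family, Nlrp4a, Nlrp4b, Nlrp4c, Nlrp4e, Nlrp9a, Nlrp9b, Nlrp9c and Nlrp14, in oocytes that had lost Rpa1. They were chosen by gene symbol, as oocyte NLRP genes outside the subcortical maternal complex, and are 8 of the 49315 genes in the count table. Earlier results of these data were known when the choice was made. RNA was sequenced from germinal vesicle (GV) oocytes at full size, which have not yet resumed meiosis and keep an intact nucleus. The OcKO group was 3 mice with an oocyte-specific conditional deletion of Rpa1, which encodes the large subunit of the single-strand DNA-binding complex RPA, and the Control group was 3 mice described only by that name. Mice of both groups were 4 to 5 weeks old and had been primed with pregnant mare serum gonadotropin (PMSG). Each library pooled about 20 oocytes of 1 mouse, stripped of cumulus cells. The sources used here do not give the Cre driver or the alleles that the Control mice carried.

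NLRP proteins carry an N-terminal pyrin domain, a central nucleotide-binding NACHT domain and C-terminal leucine-rich repeats. Several family members are known as innate immune sensors that assemble inflammasomes. A separate, reproductive branch, expanded by duplication in rodents, is transcribed mainly in oocytes, and its maternal products persist into the early embryo. Nlrp14 is required for female fertility in mice and its product has been described as a partner of UHRF1. Nlrp4e has been linked to early cleavage by knockdown in mice, and Nlrp9b is also known from intestinal epithelium as an RNA-virus sensor that works with DHX9.

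All 8 genes are protein-coding and lie on chromosome 7 (GRCm38, coordinates of the deposited files, the same ends as in GENCODE M21). Nlrp9c, on the minus strand (chr7:26322473-26403700), Nlrp4a (chr7:26435113-26476142) and Nlrp9a (chr7:26535023-26575615), both on the plus strand, follow each other. Nlrp4c (chr7:6045161-6105150), Nlrp4b (chr7:10687789-10730168), Nlrp9b (chr7:19991465-20073306), Nlrp4e (chr7:23301192-23362277) and Nlrp14 (chr7:107166990-107198102) are all on the plus strand. Their exons add up to between 3400 bases (Nlrp4e) and 5935 bases (Nlrp9c).

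The 3 Nlrp9 genes, whose fold changes are among the most negative of the 8, are also close copies of each other, so their sequences are shown first. A stretch of 169 bases of coding sequence, from position 569 to 737 of each coding sequence and within 1 exon, was read from the GENCODE M21 transcripts. It holds the longest run that Nlrp9a and Nlrp9b share, 129 bases. Sequences run 5′ to 3′ on the gene's strand, and capitals mark bases that differ from Nlrp9a. Nlrp9a lies at chr7:26557527-26557695 (plus strand), Nlrp9b at chr7:20023408-20023576 (plus strand) and Nlrp9c at chr7:26385416-26385584 (minus strand).
Nlrp9a: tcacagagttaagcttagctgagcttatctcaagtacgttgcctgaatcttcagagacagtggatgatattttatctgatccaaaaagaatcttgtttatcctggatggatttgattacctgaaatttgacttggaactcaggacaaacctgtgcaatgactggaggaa
Nlrp9b: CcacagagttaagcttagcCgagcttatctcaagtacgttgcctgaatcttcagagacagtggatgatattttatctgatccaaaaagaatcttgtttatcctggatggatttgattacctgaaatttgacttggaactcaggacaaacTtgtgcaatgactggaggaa
Nlrp9c: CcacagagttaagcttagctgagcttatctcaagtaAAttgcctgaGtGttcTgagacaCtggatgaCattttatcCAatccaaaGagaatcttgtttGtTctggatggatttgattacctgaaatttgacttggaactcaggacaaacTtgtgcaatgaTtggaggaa
In this stretch Nlrp9b differed from Nlrp9a at 3 bases and Nlrp9c at 15. Over whole coding sequences, Nlrp9a was 87.7% identical to Nlrp9c and 84.2% identical to Nlrp9b. Nlrp4c and Nlrp4e were the most alike of all pairs, at 93.9%.

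The bases before the transcription start show a further likeness. RefSeq promoter sequences (GRCm38.p6) were found for 7 of the 8 genes, in 9 windows, since Nlrp4a and Nlrp4b have more than 1 start; Nlrp14 had none in the table. Below are the 250 bases before the start of Nlrp9a (chr7:26534773-26535022, plus strand), Nlrp9c (chr7:26403701-26403950, minus strand), Nlrp9b (chr7:20007773-20008022, plus strand) and Nlrp4c (chr7:6044911-6045160, plus strand), on the strand of the gene. Capitals mark CCAAT, the letters of the CCAAT box, or its reverse complement ATTGG.
Nlrp9a: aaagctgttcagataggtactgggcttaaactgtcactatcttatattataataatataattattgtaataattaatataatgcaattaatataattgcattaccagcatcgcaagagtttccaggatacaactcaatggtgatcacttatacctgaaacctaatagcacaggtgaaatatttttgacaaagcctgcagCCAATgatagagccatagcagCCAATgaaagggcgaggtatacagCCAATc
Nlrp9c: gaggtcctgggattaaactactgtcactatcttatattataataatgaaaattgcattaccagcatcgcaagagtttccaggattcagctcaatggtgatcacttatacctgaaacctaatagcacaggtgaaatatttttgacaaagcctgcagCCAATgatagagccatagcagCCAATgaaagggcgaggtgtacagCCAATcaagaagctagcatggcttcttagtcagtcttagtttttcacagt
Nlrp9b: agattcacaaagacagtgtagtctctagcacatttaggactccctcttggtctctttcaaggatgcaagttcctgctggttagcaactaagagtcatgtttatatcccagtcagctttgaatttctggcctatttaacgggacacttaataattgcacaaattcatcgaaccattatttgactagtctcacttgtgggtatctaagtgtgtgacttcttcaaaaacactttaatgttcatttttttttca
Nlrp4c: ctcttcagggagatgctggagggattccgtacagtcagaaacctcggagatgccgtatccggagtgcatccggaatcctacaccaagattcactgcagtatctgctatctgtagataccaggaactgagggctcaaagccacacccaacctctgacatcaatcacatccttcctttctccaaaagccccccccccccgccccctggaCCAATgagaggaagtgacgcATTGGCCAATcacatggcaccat
The Nlrp9a and Nlrp9c windows were 96.5% identical over 202 aligned bases, and each held 3 copies of CCAAT. The Nlrp9a and Nlrp9b windows were 63.9% identical over 169 aligned bases, and the Nlrp9b window held no copy. That Nlrp9b window, however, lies inside the gene as annotated here, which starts at chr7:19991465. Those of Nlrp9a, Nlrp9c and Nlrp4c border the annotated start of their gene. The Nlrp9b window is therefore not compared at a like start. Nlrp4c held 3 copies, a pair of them side by side on opposite strands as the letters ATTGG and CCAAT. Of the 9 windows, 7 held at least 1 copy and 3 held at least 3, where 33.8% and 2.79% of all 32851 promoter windows of this length did. The 2 windows of Nlrp4b overlap and hold the same copies. They end at chr7:10687792 and chr7:10687820, past the annotated start of the gene at chr7:10687789, though the copies lie before it. The Nlrp4a window with a copy, chr7:26435364-26435613, lies inside the annotated gene, which starts at chr7:26435113. Windows of related genes are alike too, so the 9 are not independent. The Nlrp4c window and 1 Nlrp4b window, for example, were 77.4% identical over 208 aligned bases. Also counted were the letters CANNTG, where N is any base, and TAATTG. At least 1 CANNTG was in 8 of the 9 windows and at least 2 in 3, beside 66.2% and 31.8% of all windows. At least 1 TAATTG was in 2 of the 9, beside 7.17%. A match of these letters is a description of the sequence and not a binding site.

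Because the copies are so alike, a read can match several of them. The share of each gene's transcript windows found without a mismatch in another gene of GENCODE M21 was therefore counted. Nlrp14 and Nlrp4b shared none of their windows at 50, 75 or 100 bases. Nlrp4e shared the most, 36.7% of 50-base windows and 11.5% of 100-base windows, mainly with the unnamed copies Gm8486, Gm16443, Gm8685, Gm8728 and Gm4541. Those 5 copies averaged at most 0.46 CPM in OcKO and at most 1.44 CPM in Control oocytes. Among the rest, 50-base windows were shared at 10.7% in Nlrp4c, 7.79% in Nlrp9b, 6.07% in Nlrp9a, 2.63% in Nlrp4a and 2.61% in Nlrp9c. The values of Nlrp4e and Nlrp4c are uncertain as to the copy, since the sources used here do not give how reads with several matches were counted. Exons of Nlrp9b also overlap those of Gm18877 on the same strand over 136 bases (3.65% of its exonic bases), and Gm18877 had 0 counts in all 6 libraries.

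**Figure D1:**
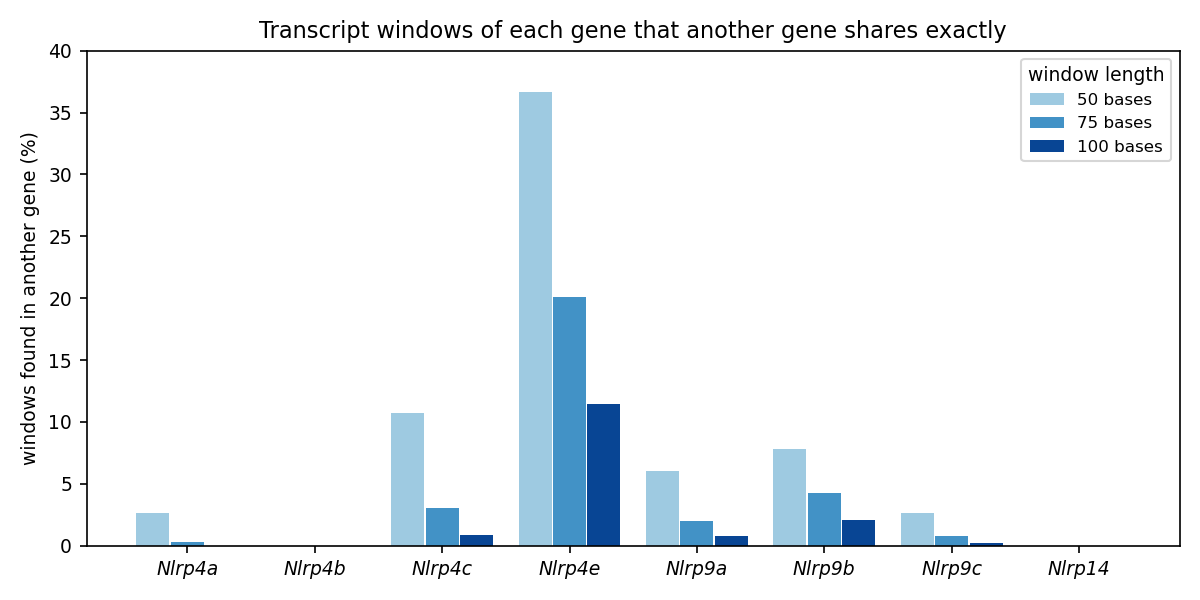
Percent of each gene's transcript windows (y axis) that occur without a mismatch in a transcript of another gene, for windows of 50, 75 and 100 bases (bar colours) and the 8 genes (x axis). Nlrp4e reaches 36.7% at 50 bases, while Nlrp14 and Nlrp4b are at 0 at every length.

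The libraries held 36280148 to 44575222 counts. Rpa1 itself stood at 7.76, 4.14 and 6.84 CPM in OcKO oocytes, against 156, 155 and 140 CPM in Control oocytes, and was called lower (log2 fold change -4.59 with an SE of 0.31; adjusted p = 0.0064 with edgeR). The adjusted p of Rpa1 was 0.0959 without OcKO replicate 3, 0.0526 without Control replicate 2 and 0.0588 without Control replicate 3. CPM is each count scaled to library size and TMM factor, and a gene was called at an adjusted p under 0.05. The 12 oocyte markers summed to 21873 to 26347 CPM in OcKO and 25714 to 40620 CPM in Control oocytes, with none at 0. The 16 granulosa and cumulus markers summed to 105 to 127 CPM in OcKO and 80.4 to 113 CPM in Control oocytes, with 1 at 0 everywhere. Immune markers summed to 35.6 to 47.0 CPM in OcKO and 35.6 to 46.3 CPM in Control oocytes. Mitochondrially encoded genes took 0.169% ± 0.0175 of counts in OcKO and 0.0734% ± 0.00688 in Control oocytes (SD, n = 3 each). Their part in the results on the NLRP genes was not tested.

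None of the 8 genes passed the test, and their fitted values were lower in OcKO oocytes for all 8 with TMM scaling, but for 6 of 8, without Nlrp14 and Nlrp4e, with library size alone. All 8 cleared the filter on low counts and were among the 16060 genes tested. With edgeR's quasi-likelihood test, 0 of 8 were called in either direction, beside 0.143% of all tested genes, 0.137% called higher and 0.00623% called lower. DESeq2 also called 0 of 8, beside 2.99% of its genes called higher and 1.71% called lower, or 2.21% called lower when it was run on all genes with a count. All 8 log2 fold changes were negative, as were 49.2% of those of all tested genes, and their median was -0.59, beside 0.01 for all tested genes. At an unadjusted p under 0.05, 4 were lower in OcKO oocytes (Nlrp4c, Nlrp9a, Nlrp9b and Nlrp9c), beside 5.21% of all tested genes, and 0 were higher, beside 5.93%. The count of 4 became 1 with library size alone and 1 without OcKO replicate 1, OcKO replicate 3, Control replicate 2 or Control replicate 3, and 5 without OcKO replicate 2. In 3 (Nlrp4c, Nlrp9b and Nlrp9c) every OcKO library lay below every Control library, beside 8.67% of all tested genes. Of 11 oocyte markers tested, 8 had a negative log2 fold change and 3 a positive one, with a median of -0.16. In 3 of those markers every OcKO library lay below every Control library, and in 0 above. DESeq2 called 1 of them lower and 0 higher. OcKO replicate 3 was the lowest library for 7 of the 8 NLRP genes, so these are not 8 independent observations. In pooled oocytes, fewer oocytes with a transcript and less of it per oocyte cannot be told apart.

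**Figure D2:**
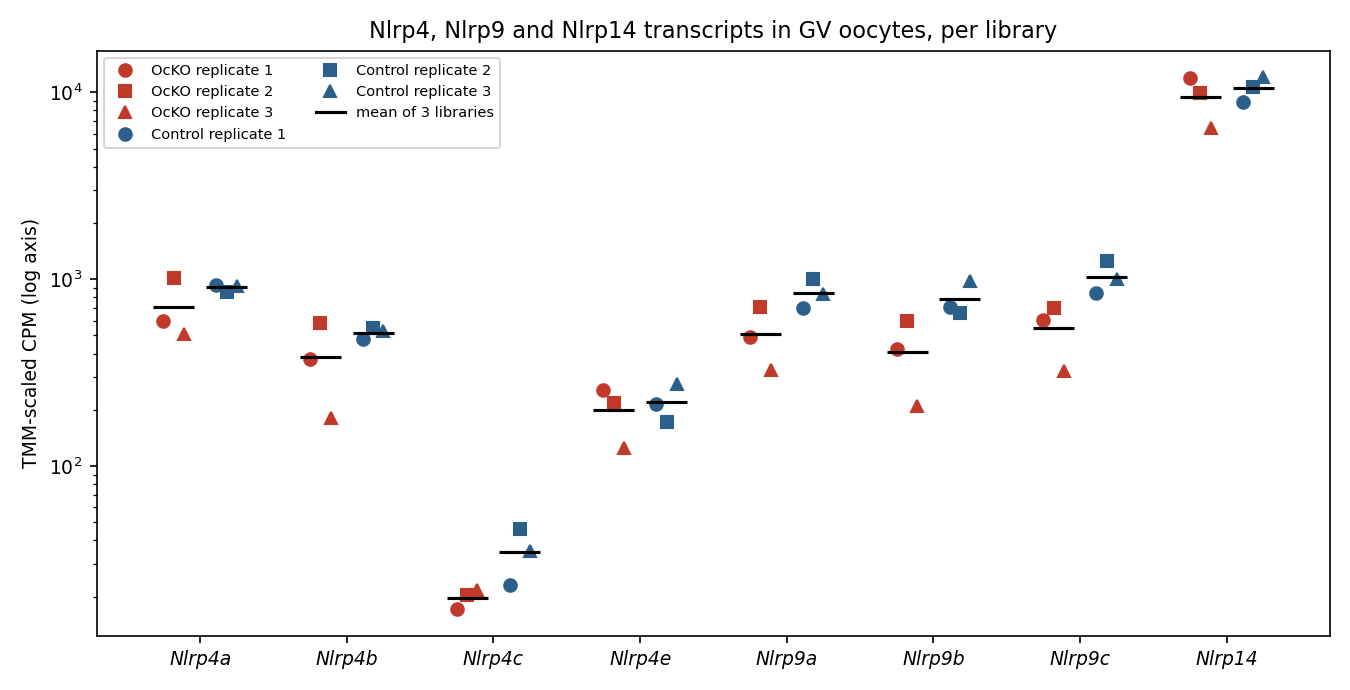
TMM-scaled CPM on a log axis for the 8 genes, with the OcKO libraries (red) left of the Control libraries (blue), 1 marker shape per replicate and a bar at the mean of 3 libraries. Nlrp14 is at 6408 CPM or more in every library and Nlrp4c at 46.3 CPM or less, and in Nlrp9b and Nlrp9c all red points lie under all blue ones.

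The Nlrp9 genes had the most uniform pattern. Nlrp9c stood at 607, 705 and 324 CPM in OcKO replicates 1 to 3 and at 843, 1247 and 1008 CPM in Control replicates 1 to 3. The groups did not overlap, and OcKO replicate 3 was far below the other OcKO libraries. Its mean was 545 ± 198 CPM in OcKO and 1033 ± 203 CPM in Control oocytes (SD, n = 3 each). The log2 fold change was -0.92 (SE 0.31; edgeR adjusted p = 0.298). DESeq2 on the same genes put its adjusted p at 0.05005, just above the threshold. Run on all genes with a count, a choice made after seeing the data, DESeq2 gave an adjusted p of 0.0792.

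Nlrp9b stood at 421, 595 and 209 CPM in OcKO replicates 1 to 3 and at 713, 662 and 974 CPM in Control replicates 1 to 3. The highest OcKO library, replicate 2, came close to the lowest Control library without reaching it. With means of 408 ± 194 CPM in OcKO and 783 ± 168 CPM in Control oocytes (SD, n = 3 each), Nlrp9b had the most negative log2 fold change of the 8, -0.94 (SE 0.37; edgeR adjusted p = 0.401). Nlrp9a stood at 492, 710 and 326 CPM in OcKO and at 701, 1003 and 835 CPM in Control replicates 1 to 3. Here OcKO replicate 2 lay just above Control replicate 1, so the groups overlapped. The log2 fold change of Nlrp9a was -0.73 (SE 0.30; edgeR adjusted p = 0.414).

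Nlrp9a and Nlrp9c kept the steadiest proportion. The ratio of Nlrp9a to Nlrp9c CPM was 0.810, 1.01 and 1.01 in OcKO and 0.831, 0.804 and 0.828 in Control replicates 1 to 3. Its highest value was 1.25 times its lowest, the smallest spread among the 28 pairs of the 8 genes, where Nlrp4c over Nlrp4e spread 4.01-fold. A ratio between genes of 1 library does not depend on how libraries are scaled. Nlrp9a and Nlrp9c share 2.33% of the 50-base windows of Nlrp9a.

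The Nlrp4 genes were less uniform. Nlrp4c, the least abundant, stood at 17.2, 20.5 and 21.7 CPM in OcKO and at 23.1, 46.3 and 35.1 CPM in Control replicates 1 to 3. Its OcKO libraries lay close together and below the Control libraries, which spread widely. The log2 fold change was -0.82 (SE 0.34; edgeR adjusted p = 0.429).

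Nlrp4a stood at 597, 1015 and 509.6 CPM in OcKO and at 933, 857 and 919 CPM in Control replicates 1 to 3. The Control libraries were nearly level, and OcKO replicate 2 was above all of them while the other OcKO libraries were below. Its log2 fold change was -0.35 (SE 0.27; edgeR adjusted p = 0.726). Nlrp4b stood at 375, 586 and 182 CPM in OcKO and at 477, 547 and 526 CPM in Control replicates 1 to 3. It had the same arrangement as Nlrp4a, with OcKO replicate 2 highest of the 6 libraries and OcKO replicate 3 lowest. The log2 fold change was -0.44 (SE 0.38; edgeR adjusted p = 0.758).

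Nlrp4e stood at 256, 216 and 125 CPM in OcKO and at 216, 172 and 274 CPM in Control replicates 1 to 3. Only OcKO replicate 3 lay outside the range of the Control libraries. Its log2 fold change was -0.15 (SE 0.30; edgeR adjusted p = 0.918).

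Nlrp14 stood at 11985, 9891 and 6408 CPM in OcKO and at 8866, 10647 and 12038 CPM in Control replicates 1 to 3. OcKO replicate 1 lay close to the highest Control library and OcKO replicate 3 was the lowest of all. The means were 9428 ± 2817 CPM in OcKO and 10517 ± 1590 CPM in Control oocytes (SD, n = 3 each), and the log2 fold change was -0.16 (SE 0.25; edgeR adjusted p = 0.896). As a plain share of all counts, without TMM scaling, Nlrp14 took 0.990% ± 0.263 in OcKO and 0.990% ± 0.145 in Control oocytes.

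**Figure D3:**
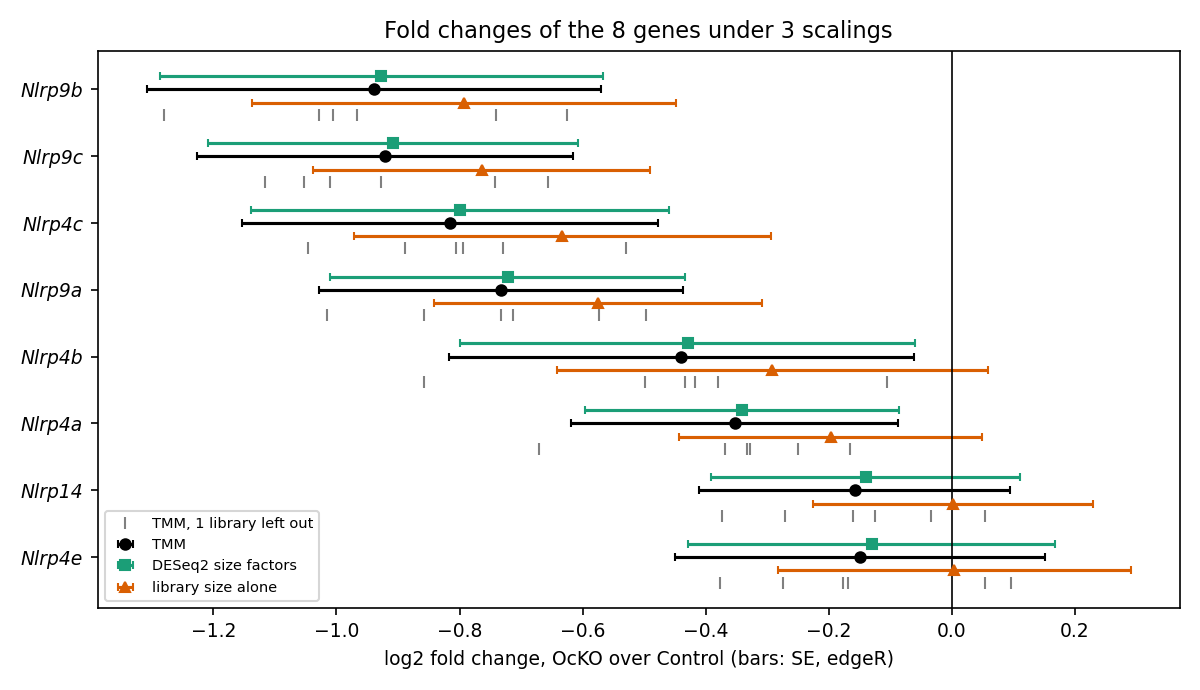
Log2 fold change of OcKO over Control (x axis) for each gene with TMM scaling (black), DESeq2 size factors (green) and library size alone (orange), bars being the SE of the edgeR fit, and grey ticks the TMM fits with 1 library left out. The estimates of Nlrp14 and Nlrp4e cross 0, while those of the other 6 genes stay below 0 in every fit drawn.

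The sign held in every alternative fit for 6 of the 8 genes, and not for Nlrp14 and Nlrp4e. Scaling by library size alone moved the median of all tested genes to 0.18 and put Nlrp14 at 0.0018 and Nlrp4e at 0.0039. Leaving out OcKO replicate 3 put Nlrp14 at 0.0548 and Nlrp4e at 0.0963, and it changed Nlrp9b to -0.63, Nlrp9c to -0.66, Nlrp9a to -0.50, Nlrp4b to -0.11 and Nlrp4a to -0.17, while Nlrp4c went further below 0, to -0.89. Leaving out OcKO replicate 2 instead put Nlrp4a at -0.67 (unadjusted p = 0.0041) and Nlrp4b at -0.86 (unadjusted p = 0.0340), where neither was under 0.05 with all libraries. The lowest edgeR adjusted p of any of the 8 genes over the 6 leave-out fits was 0.223, for Nlrp4a.

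Values of the 8 genes also differed between libraries of the same group. OcKO replicate 3 was the lowest of all 6 libraries for 7 of the 8 genes, and OcKO replicate 1 for the other, Nlrp4c. Within the OcKO group alone, OcKO replicate 3 was the lowest for 7 of 8, beside 33.4% of all tested genes. OcKO replicate 2 was the highest of its group for 5 of 8, beside 34.6% of all tested genes. The median of the 8 genes, as log2 CPM over the Control mean, was -0.68, -0.17 and -1.10 in OcKO and -0.19, 0.05 and 0.03 in Control replicates 1 to 3. Genes detected in OcKO replicate 3 numbered 21251, between the 19915 and 22393 of OcKO replicates 1 and 2, and the Control libraries had 18330 to 19351. It had the fewest counts of the 6, 36280148, the largest TMM factor, 1.12, and the largest mitochondrial share, 0.188%. Their part in its low NLRP values was not tested.

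**Figure D4:**
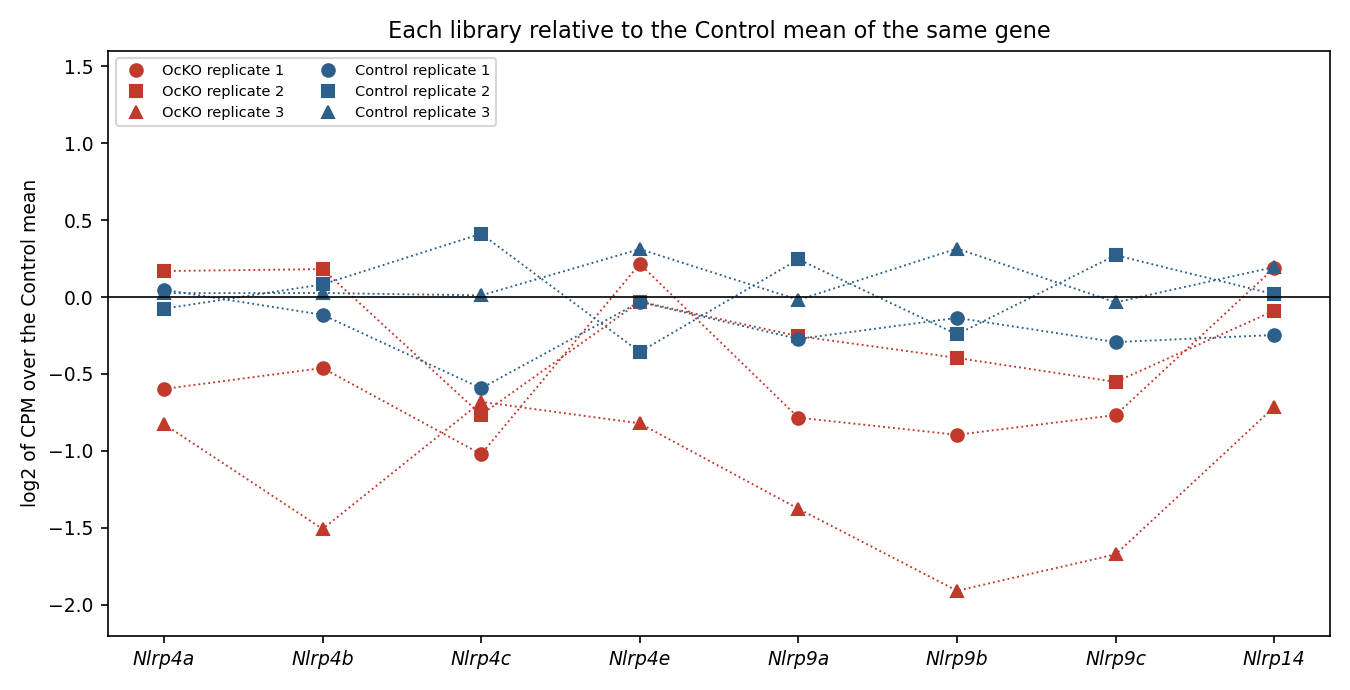
Log2 of each library's CPM over the Control mean of the same gene (y axis) for the 8 genes (x axis), OcKO libraries in red and Control libraries in blue, 1 marker shape per replicate. The red triangles, OcKO replicate 3, are the lowest points of 7 genes and reach -1.91 at Nlrp9b, and the red squares, OcKO replicate 2, are above 0 at Nlrp4a and Nlrp4b.

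Setting each gene against Nlrp14 of the same library removes the scaling altogether. This measure was chosen after the values were seen. Nlrp9c came to 5.07%, 7.13% and 5.06% of Nlrp14 CPM in OcKO and 9.51%, 11.7% and 8.38% in Control replicates 1 to 3. Nlrp9b came to 3.51%, 6.02% and 3.26% in OcKO and 8.04%, 6.22% and 8.09% in Control replicates 1 to 3. In both the OcKO libraries lay below all Control libraries, and the exact two-sided permutation p was 0.1 for each, the smallest that 3 against 3 libraries can give (0.35 after Benjamini-Hochberg adjustment over 7 ratios). The ratios of the other 5 genes overlapped between groups, with exact p between 0.2 and 1. With 3 against 3 libraries this test cannot reach a p under 0.05, so no conclusion is drawn from it. No share over all tested genes is given for such ratios. Nlrp4e came to 2.09% ± 0.125 of Nlrp14 in OcKO and 2.11% ± 0.433 in Control oocytes (SD, n = 3 each).

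Levels of different genes were compared per kilobase of exon, using the deposited exonic lengths. Nlrp14 was at 2819 CPM per kilobase as a mean of the 6 libraries, the highest of the 8 and the 7th highest of all tested genes, and it was 2nd by CPM. The next was Nlrp9a at 195 CPM per kilobase, and in each of the 6 libraries Nlrp14 was 10.5 to 24.0 times higher than it. Below it came Nlrp4a at 166, Nlrp9b at 160, Nlrp9c at 133, Nlrp4b at 99.96, Nlrp4e at 61.8 and Nlrp4c at 6.81 CPM per kilobase.

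Some neighbours in that order could not be separated. Nlrp9a exceeded Nlrp4a, and Nlrp4a exceeded Nlrp9b, in 4 of 6 libraries each. Nlrp9b exceeded Nlrp9c, and Nlrp9c exceeded Nlrp4b, in 5 of 6 each. Nlrp4b was above Nlrp4e and Nlrp4e above Nlrp4c in all 6. Per kilobase of coding sequence, a choice made after seeing the data, the order was Nlrp14, Nlrp4a, Nlrp9c, Nlrp9a, Nlrp9b, Nlrp4b, Nlrp4e and Nlrp4c. Of the summed level per kilobase of the 8 genes, Nlrp14 made up 80.7% ± 4.31 in OcKO and 74.7% ± 1.33 in Control oocytes (SD, n = 3 each). The Nlrp14 shares were 84.0%, 75.8% and 82.2% in OcKO and 73.5%, 74.4% and 76.1% in Control replicates 1 to 3, so the groups overlapped.

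The NLRP genes of the subcortical maternal complex, a maternal protein assembly needed for early cleavage, were read in the same fit, and 0 of 3 were called. Nlrp2 stood at 304, 467 and 225 CPM in OcKO and at 592, 616 and 612 CPM in Control replicates 1 to 3. As for Nlrp9c, every OcKO library lay below every Control library and OcKO replicate 3 was the lowest (log2 fold change -0.87, SE 0.27; edgeR adjusted p = 0.266). DESeq2 called 1 of the 3, where it called 0 of the 8 genes described here. Nlrp5, also known as Mater, averaged 3643 ± 441 CPM in OcKO and 5345 ± 2029 CPM in Control oocytes (SD, n = 3 each; log2 fold change -0.55, edgeR adjusted p = 0.523). Nlrp4f, the Nlrp4 copy assigned to the complex, averaged 1719 ± 706 CPM in OcKO and 1681 ± 76.4 CPM in Control oocytes, with a log2 fold change of 0.03. It shared with Nlrp4a and Nlrp4b the arrangement of OcKO replicate 2 highest, at 2444 CPM, and OcKO replicate 3 lowest, at 1033 CPM. Nlrp4g, another Nlrp4 copy, averaged 262 ± 156 CPM in OcKO and 370 ± 25.7 CPM in Control oocytes (log2 fold change -0.50, edgeR adjusted p = 0.758). Nlrp4d stayed under 0.1 CPM in every library.

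Most sensors and adaptors of the inflammasome stood at far lower levels than the 8 genes, but some were near Nlrp4c. As means of the 6 libraries, Nlrp4c was at 6.81 CPM per kilobase of exon. Naip1 was at 10.9, Nlrc4 at 5.52 and Nek7 at 4.79. Of 11 sensor genes, 3 passed the filter on low counts and 0 were called. Naip1, whose product is a sensor partner of NLRC4, averaged 53.8 ± 15.1 CPM in OcKO and 63.0 ± 10.4 CPM in Control oocytes. Nlrc4 averaged 16.4 ± 4.53 CPM in OcKO and 25.9 ± 3.80 CPM in Control oocytes (log2 fold change -0.66, SE 0.34; edgeR adjusted p = 0.549). Nlrp3 had counts in 1 library, Control replicate 2, at 2.40 CPM. Among 9 adaptor and effector genes, 4 passed the filter and 0 were called. Nek7 was the most abundant of them, at 33.5 ± 2.78 CPM in OcKO and 37.2 ± 12.7 CPM in Control oocytes. Pycard, which encodes the adaptor ASC, averaged 0.695 ± 0.486 CPM in OcKO and 0.223 ± 0.110 CPM in Control oocytes, while Casp1, the inflammatory caspase gene, was at 1.71, 4.03 and 1.21 CPM in OcKO and 0.110, 5.62 and 9.10 CPM in Control replicates 1 to 3. Of 7 other NLR genes, 2 passed the filter, Nod2 and Nlrc3, and 0 were called.

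**Figure D5:**
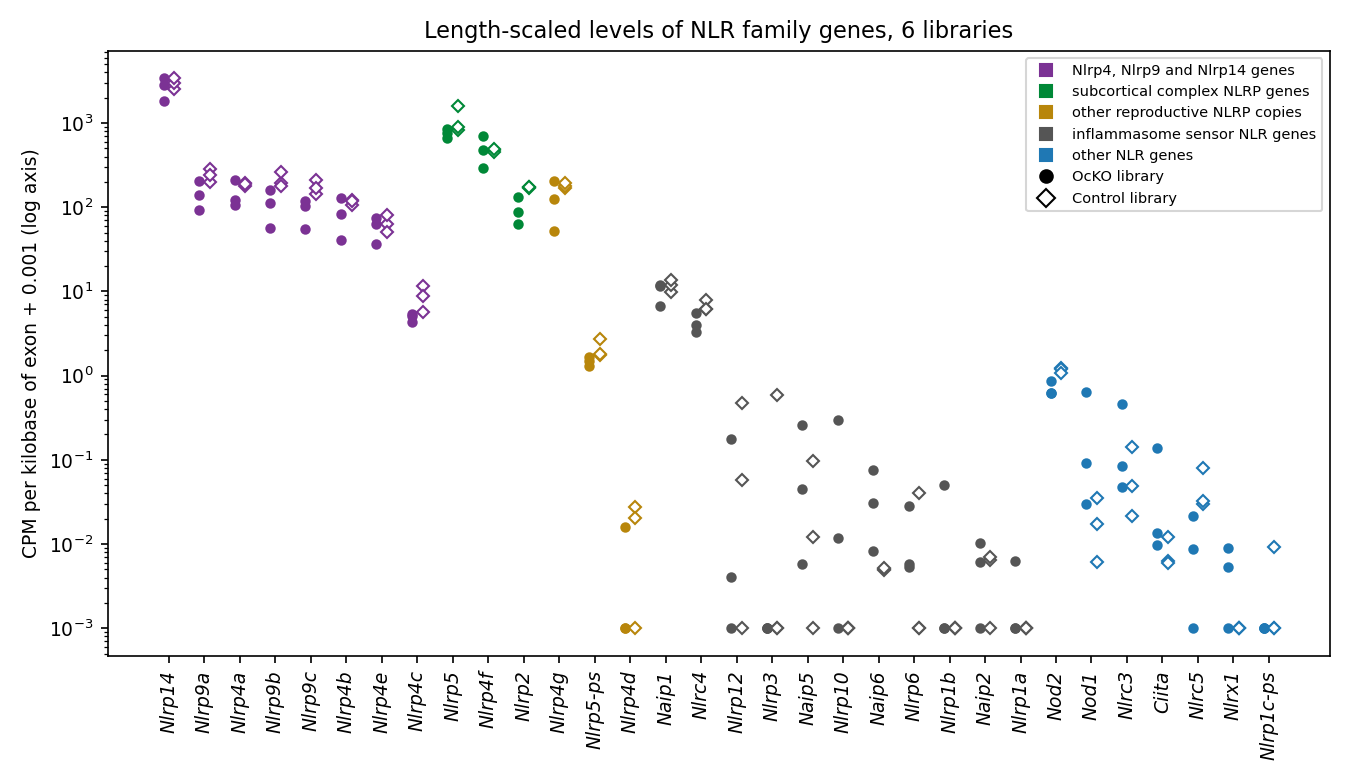
CPM per kilobase of exon plus 0.001, on a log axis, for NLR family genes in each of 6 libraries (filled circles OcKO, open diamonds Control), coloured by gene list and sorted by mean within each list. Nlrp14 stands highest at a mean of 2819, and apart from Naip1 and Nlrc4 no inflammasome sensor exceeds a level of 1 in any library.

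Of 8 genes whose products have been described as partners of NLRP4, NLRP9 or NLRP14 proteins, in mouse or human cells, 6 passed the filter and 0 were called. Uhrf1, encoding a regulator of DNA methylation described as a partner of NLRP14, averaged 1072 ± 357 CPM in OcKO and 1251 ± 118 CPM in Control oocytes (log2 fold change -0.22, edgeR adjusted p = 0.828). Kpna2, encoding a nuclear import receptor, averaged 1940 ± 401 CPM in OcKO and 1585 ± 483 CPM in Control oocytes (log2 fold change 0.29, edgeR adjusted p = 0.771). The oocyte importin gene Kpna7 averaged 689.5 ± 60.8 CPM in OcKO and 753 ± 30.9 CPM in Control oocytes (log2 fold change -0.13, edgeR adjusted p = 0.842).

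Within 100 kb of the 8 genes lay 69 other genes, of which 14, including Nlrp5 at 23612 bases from Nlrp4e, passed the filter. Of those, 9 had a negative log2 fold change, beside 49.2% of all tested genes, and 0 were called. In 4 of the 14 every OcKO library lay below every Control library, beside 8.67% of all tested genes. In 1 every OcKO library lay above every Control library, beside 10.7%. Ceacam20, of the carcinoembryonic antigen family, lies 361 bases from Nlrp9b and averaged 52.8 ± 4.93 CPM in OcKO and 79.2 ± 17.8 CPM in Control oocytes (log2 fold change -0.58, SE 0.24; edgeR adjusted p = 0.415). Its OcKO libraries all lay below its Control libraries, as did those of Igsf23 and Gm45379. The remaining one of the 4 is not named here. Pvr was the neighbour whose OcKO libraries all lay above its Control libraries. Igsf23, an immunoglobulin superfamily gene 40709 bases from Nlrp9b, averaged 70.7 ± 5.50 CPM in OcKO and 92.3 ± 16.1 CPM in Control oocytes (log2 fold change -0.38, edgeR adjusted p = 0.580). Pvr, encoding the poliovirus receptor homologue, lies 70305 bases from Nlrp9b and had the smallest p of the neighbours. It averaged 1.08 ± 0.326 CPM in OcKO and 0.0272 ± 0.0276 CPM in Control oocytes (log2 fold change 5.16, edgeR adjusted p = 0.147). Gm45379, 611 bases from Nlrp4b, averaged 1.31 ± 1.62 CPM in OcKO and 6.44 ± 2.77 CPM in Control oocytes (log2 fold change -2.29, edgeR adjusted p = 0.514). The library kit does not mark strand, so reads of genes this close may not be separable.

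The genes most like the 8 across the 6 libraries were ranked by Pearson's r with the mean standardised log2 CPM of the 8, among 9240 genes with a mean of at least 5 CPM. The highest were Fbxw16 (r of 0.997), an F-box and WD repeat gene, Dsn1 (0.994), a kinetochore gene, Sypl (0.989), a synaptophysin-like gene, Cul1 (0.989), the cullin scaffold of SCF ubiquitin ligases, and Timd4 (0.986), which encodes a phosphatidylserine receptor. These values describe 6 libraries that share their scaling, and so many genes were ranked that high values are found by selection. Fbxw16 stood at 764, 974 and 451 CPM in OcKO and at 962, 1243 and 1315 CPM in Control replicates 1 to 3. Like the Nlrp9 genes it was lowest in OcKO replicate 3 (log2 fold change -0.68, edgeR adjusted p = 0.442).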

How the data were processed

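RNA from GV oocytes of 3 OcKO and 3 Control mice was sequenced with a low-input library kit that does not mark strand. The authors deposited raw read counts per gene. The submitters' processing notes name Trimmomatic 0.36, STAR 2.5.2b, featureCounts and Subread 1.5.2, with the build GRCm38. The sources used here do not give the annotation release or the counting of reads with several matches. Series table and sample files differed in 0 values, and 99.3% of identifiers were found in GENCODE M21.

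The deposited counts were compared with edgeR 4.0.16 in R 4.3.3 (TMM, filterByExpr, glmQLFit, glmQLFTest, Benjamini-Hochberg over 16060 genes, adjusted p under 0.05). The SE was taken as the size of the log2 fold change divided by the root of its F statistic. Alternatives were DESeq2 1.42.0, limma 3.58.1 voom, other scalings, filters of none and of 5 CPM in 3 libraries, a replicate block and leaving out each library. The edgeR fit was tested on simulated counts. One count was worth 0.0224 to 0.0276 CPM by library size alone, before the TMM factor. The error from the number of reads counted is therefore small for the 8 genes, and the spread between libraries limits precision. Each library came from a different mouse, so differences between mice and between library preparations cannot be told apart. The members and gene lists were chosen with earlier results of these data known. Named besides the 8 genes are Rpa1, Nlrp2, Nlrp5, Nlrp4f, up to 3 genes of smallest p per list, 5 neighbours of smallest p and 5 genes of highest r. Gm copies, Nlrp3 and Nlrp4d were added after their values were seen. Protein alignments planned between the genes were replaced by coding-sequence alignments.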

Additional observations from a re-analysis of the deposited data

How the results depend on the processing

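The call of 0 of 8 genes in either direction held in all 14 alternatives. The number of the 8 genes lower at an unadjusted p under 0.05 was 4; it was 1 with library size alone, 2 with the replicate block, and 1 to 5 over the 6 leave-out fits, being 1 without OcKO replicate 1, OcKO replicate 3, Control replicate 2 or Control replicate 3 and 5 without OcKO replicate 2. The log2 fold change of Nlrp14 turned to 0.0018 and that of Nlrp4e to 0.0039 with library size alone, to 0.0548 and 0.0963 without OcKO replicate 3, and that of Nlrp4e to 0.0537 without Control replicate 3. Over the leave-out fits Nlrp9b ranged from -1.28 to -0.63, Nlrp9c from -1.12 to -0.66, Nlrp9a from -1.02 to -0.50, Nlrp4c from -1.05 to -0.53, Nlrp4b from -0.86 to -0.11, Nlrp4a from -0.67 to -0.17, Nlrp14 from -0.37 to 0.0548 and Nlrp4e from -0.38 to 0.0963. The causes were not tested.

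Genes called over the whole table, 22 higher and 1 lower, came to 477 and 272 with DESeq2, 765 and 391 with DESeq2 on all genes with a count (added after seeing the data), 60 and 8 with at least 5 CPM in 3 libraries, 0 higher with voom, and 0 and 0 with the replicate block. They ranged from 0 to 4 higher and from 0 to 2 lower over the leave-out fits. With the replicate block Rpa1 kept a log2 fold change of -4.63 but had an adjusted p of 0.159. Over the leave-out fits it ranged from -4.78 to -4.33, with an adjusted p of 0.0125 to 0.0959, past 0.05 without OcKO replicate 3 (-4.66), Control replicate 2 (-4.53) and Control replicate 3 (-4.61). Deviations of same-numbered mice from their group means had an r of -0.037, -0.0448 and -0.045 over genes. Such deviations balance each other within a group of 3, so these values do not settle whether the numbers pair the samples. By coding length, Nlrp4a took place 2, Nlrp9c 3, Nlrp9a 4 and Nlrp9b 5 in the order of levels.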
